A study of Mus musculus with 6 samples.

Results

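The MM9LINCRNAEXON probes are 83 oligonucleotides on a mouse long non-coding RNA array whose names carry the prefix MM9LINCRNAEXON, an exon number and a strand sign. All non-control probes with that prefix were taken, which gave 83 of 60915 probes, 50 with a plus sign and 33 with a minus sign. They stand for 71 exon numbers between 10101 and 12051. For 38 numbers the array holds a plus-strand probe only, for 21 a minus-strand probe only, and for 12 numbers it holds both. Each probe was read by 1 spot per array. A probe is given below by its exon number and sign, so that 11274+ stands for MM9LINCRNAEXON11274+_P1. The file headers name mm9 as the genome build of the array. Exon positions and probe sequences were not used here, and the sources used here do not say whether the sign marks the strand of the transcript or of the probe.

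RNA came from ATDC5, a mouse chondrogenic cell line that serves as a culture model of cartilage formation. Of 6 one-colour arrays, 3 held RNA of differentiated cells, kept in medium with 1% ITS (insulin, with selenite at 5 ng/ml and transferrin at 5.5 µg/ml) over 14 days, and 3 held RNA of undifferentiated cells of the same line, whose days in culture the labels do not state. The maintenance medium with serum is described alike for both groups. The labels print the insulin amount as zero, and they do not tie the replicates to separate cultures. The p-values therefore measure the spread among these samples alone, and that spread may be technical. The label ATDC5 was not checked against cartilage markers, because the files do not pair probes with such genes.

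Long intergenic non-coding RNAs (lincRNAs) are spliced transcripts from between protein-coding genes. Many are made at low levels and in few cell types, and some act on chromatin or on neighbouring genes. In cartilage, lncRNA-HIT, a transcript from the HoxA region, is known for a part in chondrogenesis of the limb. The labelling here primed at random along the transcript, so exons far from the tail could be read. A probe for an exon detects RNA of 1 strand only, so a pair of probes of opposite sign can separate a lincRNA from RNA made across the same exon in the other direction.

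Across the whole array, between 62.6% and 71.0% of probes per array were well above background by the scanner software's own test. Slide 1 carried the 3 differentiated arrays together with undifferentiated array 3, and slide 2 carried the other undifferentiated arrays. A single scan covered differentiated arrays 2 and 3 and undifferentiated array 3. Undifferentiated array 3 is therefore the sole undifferentiated array that shared a slide or a scan with differentiated ones. The number of arrays limits all precision here, and in bulk RNA fewer cells of a type and less RNA per cell cannot be told apart.

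Between 45.8% and 55.4% of the exon probes gave a signal on each array. On the differentiated arrays 38, 41 and 43 of the 83 probes were well above background, and on the undifferentiated arrays 44, 46 and 42. Spots flagged as outliers were scored as not detected. The 41 on differentiated array 2 therefore leaves out 10664+, which the scanner software itself scored as well above background there. The shares and differences below treat that spot in the same way. The groups overlapped, since differentiated array 3 had more detected exon probes than undifferentiated array 3. The mean shares were 49.0% ± 3.03 after differentiation and 53.0% ± 2.41 without it (SD, n = 3 each), a difference of -4.02 percentage points. Over all probes of the array the shares were 65.5% ± 2.59 and 68.8% ± 2.48 (SD, n = 3 each), a difference of -3.36 points in the same direction.

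The shares detected on the plus and the minus strand overlapped. Of the 50 plus-strand probes, 23, 23 and 26 were well above background on the differentiated arrays and 26, 26 and 25 on the undifferentiated ones. The 23 on differentiated array 2 leaves out the outlier spot of 10664+. Of the 33 minus-strand probes, 15, 18 and 17 were detected on the differentiated arrays and 18, 20 and 17 on the undifferentiated ones. In percent, the plus strand stood at 48.0 ± 3.46 against 51.3 ± 1.15 and the minus strand at 50.5 ± 4.63 against 55.6 ± 4.63 (SD, n = 3 each, differentiated against undifferentiated). The groups overlapped on both strands. With the software's weaker flag, positive and significant signal, the differentiated minus undifferentiated difference was -6.0 points on the plus strand and turned to 3.03 points on the minus strand.

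By probe, 35 of the 83 were well above background on all 6 arrays, 8 on 3 to 5 arrays, 7 on 1 or 2 and 33 on none. The 8 include 10664+, whose outlier spot on differentiated array 2 was scored as not detected. With that spot counted as detected, 36 probes were well above background on all 6 arrays. A probe entered the test with 3 or more detected spots out of 6, in either group. This kept 43 exon probes (51.8%), 25 of 50 on the plus strand (50.0%) and 18 of 33 on the minus strand (54.5%). Over the whole array 68.7% of probes were kept, and among the 649 probes named mouselincRNA, the other set of mouse lincRNA probes, 43.9% were. No exon probe was well above background on all 3 arrays of 1 group and on 0 of the other. Over the whole array 0.309% of probes had that pattern for the differentiated group and 0.749% for the undifferentiated group.

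Levels are log2 processed signals relative to each array's 75th percentile, so that 0 is the signal at that percentile and a value of -1 is a signal 1 log2 unit below it. Over the 43 kept exon probes the mean level ran from -3.88 to 7.35 with a median of -1.76, against a median of -0.97 over all kept probes of the array. The median was -1.75 on the plus and -2.03 on the minus strand. Signal also depends on each probe's own binding, so levels of different probes are not set against each other as amounts of RNA.

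The brightest exon probe was 10664+. Its level was 7.40 and 7.00 on differentiated arrays 1 and 3 and 7.14, 7.56 and 7.64 on the undifferentiated arrays. The spot on differentiated array 2 was flagged as an outlier and left out, so the fit rests on 5 arrays for this probe. In intensity units these signals were 33450, 33712, 37471, 50804 and 49357. The groups overlapped, with a log2 difference of -0.24 (standard error 0.220; limma, adjusted p = 0.556).

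The next brightest was 10490+, at 4.61, 4.55 and 4.46 on the differentiated and 4.50, 4.63 and 3.93 on the undifferentiated arrays. Undifferentiated array 3 was the low one, and the other 5 arrays lay within 4.46 to 4.63. The log2 difference was 0.19 (standard error 0.199; limma, adjusted p = 0.611). Of the 6 brightest exon probes, 10569-, 11711+, 11569- and 10294- are described with the changes and the strand pairs.

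The comparison of the groups asks which of these exon transcripts change with chondrogenic induction. Of the 43 exon probes tested, limma called 3 at a threshold of 0.05 on the adjusted p (6.98%), against 13.3% of all 41838 probes tested. Among the mouselincRNA probes it called 5 of the 285 tested (1.75%). Exon probes 10136+ and 11274+ were higher, 2 of 43 where 5.4% of all probes were higher, and 11569- was lower, 1 of 43 where 7.9% of all probes were lower. By strand, 2 of 25 plus-strand probes were higher and 0 lower, and 0 of 18 minus-strand probes were higher and 1 lower. The unadjusted limma p was under 0.05 for 3 plus-strand and 4 minus-strand probes, 7 of 43 in all, against 26.1% of all probes. The count was 6 of 43 with the slide as a block, where limma called 7.67% of all probes. That fit rests on undifferentiated array 3 as the sole undifferentiated array compared. A probe that was not called is not shown to be unchanged with 3 arrays per group. Whether the share of calls differs between the strands or from the rest of the array was not tested.

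The signal of MM9LINCRNAEXON11274+_P1 was 1.38, 1.31 and 1.47 on the differentiated arrays and -0.041, 0.032 and -0.58 on the undifferentiated arrays. The differentiated arrays each lay more than 1 log2 unit above every undifferentiated one, and all 6 spots were well above background, at 514 to 730 against 166 to 276 intensity units. The log2 difference was 1.58 (95% interval 1.15 to 2.02, standard error 0.184), or 2.99-fold (limma, adjusted p = 0.0022). Undifferentiated array 3 was the lowest, and against it alone the difference was 1.96 on slide 1 and 1.97 in the shared scan. Limma called the probe in every alternative fit, with adjusted p from 0.000107 to 0.0134. The slide and scan fits among these set the differentiated arrays against that 1 array, assume that it varies like the others, and are no separate support for the call.

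The second rise was that of MM9LINCRNAEXON10136+_P1. Its level was 1.03, 0.94 and 1.38 on the differentiated arrays and -0.28, -0.12 and 0.26 on the undifferentiated arrays, with no overlap. The means were 1.11 ± 0.233 and -0.048 ± 0.280 (SD, n = 3 each), a log2 difference of 1.16 (95% interval 0.71 to 1.62, standard error 0.192), or 2.24-fold (limma, adjusted p = 0.00909). Undifferentiated array 3 was the highest of its group here. Against that array alone the log2 difference was 0.85 within slide 1 and 0.90 within the shared scan. With the slide or the scan as a block, where the comparison likewise rests on 1 undifferentiated array, limma did not call the probe (adjusted p = 0.0843 and 0.162). Such fits have little power, and they do not show that the probe failed to change.

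The lower probe, MM9LINCRNAEXON11569-_P1, stood at 0.72, 0.71 and 0.91 on the differentiated arrays and 1.21, 1.41 and 1.48 on the undifferentiated arrays. The groups did not overlap, and the highest differentiated and lowest undifferentiated arrays were differentiated 3 and undifferentiated 1. The log2 difference was -0.59 (95% interval -0.90 to -0.27, standard error 0.133; limma, adjusted p = 0.0296). The call was lost in limma without differentiated array 1 (adjusted p = 0.108) or 2 (0.118), without undifferentiated array 2 (0.113) or 3 (0.099). It was also lost with the slide (0.0888) or scan (0.223) as a block, fits that rest on undifferentiated array 3 alone and say little about the call. Within slide 1 the log2 difference was -0.70 and within the shared scan -0.67, each against that 1 array, and it lay between -0.70 and -0.48 in all alternatives.

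The 40 other tested exon probes did not pass. On the plus strand 23 had log2 differences from -0.48 to 0.75, and 21 of these lay within 0.5 of zero. On the minus strand 17 had differences from -1.03 to 1.65, and 13 lay within 0.5 of zero. The median log2 difference of the kept probes was 0.064 on the plus strand and -0.032 on the minus strand, against -0.048 over all kept probes of the array. Both lay close to zero and changed sign under other settings: the plus-strand median was -0.023 without undifferentiated array 2, and the minus-strand median was 0.071 with the normexp background and 0.040 without differentiated array 1. Of the 43, 23 had a positive and 20 a negative difference (53.5% positive). Over all kept probes of the array 43.8% were positive, and over the kept mouselincRNA probes 44.9%. A difference of 2-fold or more was found for 4 of 43 exon probes (9.30%), against 6.58% of all tested probes. Among these, 12036- and 11009- did not pass, and each includes a spot that was not well above background. With the normexp background their log2 differences were 0.60 and -0.16, whereas those of 11274+ and 10136+ were 1.33 and 1.04.

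Groups without overlap were found for 8 of the 43 exon probes, 6 higher and 2 lower, against 32.9% of all tested probes (13.7% higher and 19.2% lower). Besides the called probes, these were 10105-, 10569-, 11125+ and 12036- among the higher and 11641+ among the lower. The minus-strand probe 10569- was read at 2.95, 3.01 and 2.69 on the differentiated and 1.94, 2.56 and 2.50 on the undifferentiated arrays. Undifferentiated array 1 was the low one. Its log2 difference was 0.54 (standard error 0.198; limma, adjusted p = 0.133), and normexp background correction brought it past the threshold (0.55; limma, adjusted p = 0.0404). No other alternative did so, and the difference was 0.35 without undifferentiated array 1 (limma, adjusted p = 0.217).

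For 10105- the levels were -0.25, -0.27 and -0.44 on the differentiated and -0.59, -0.59 and -0.71 on the undifferentiated arrays, a log2 difference of 0.31 (standard error 0.122; limma, adjusted p = 0.164). For 11125+ they were -2.48, -2.25 and -2.13 against -2.65, -2.61 and -2.56, a log2 difference of 0.32 (standard error 0.136; limma, adjusted p = 0.194). In both, the gap between the groups was smaller than the range of the differentiated arrays.

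The following probes were chosen after their values were seen. The largest difference of any tested exon probe was that of 12036-, which did not pass. Its level was -1.73, -2.85 and -2.14 on the differentiated arrays and -3.20, -5.05 and -3.40 on the undifferentiated arrays, where the spot of array 2 was not well above background. The log2 difference was 1.65 (95% interval 0.43 to 2.86, standard error 0.516; limma, adjusted p = 0.0862). It passed with the replicate number as a block (adjusted p = 0.0143 in limma), the difference was 0.60 with the normexp background and 1.06 without undifferentiated array 2. On the plus strand, the largest difference that did not pass was that of 11564+, at -1.38, -2.44 and -2.31 on the differentiated and -2.33, -2.52 and -3.53 on the undifferentiated arrays. The groups overlapped, with differentiated array 1 high and undifferentiated array 3 low, and the log2 difference was 0.75 (standard error 0.390; limma, adjusted p = 0.287). It was 0.42 without differentiated array 1, 0.38 without undifferentiated array 3 and 0.35 with the normexp background, and 1.48 with the slide as a block (limma, adjusted p = 0.0904), which rests on undifferentiated array 3.

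The largest negative difference was that of 11009-, at -1.03 (standard error 0.563; limma, adjusted p = 0.311). It came from differentiated array 3, at -5.05 and not well above background, while the other 5 arrays lay between -3.08 and -2.30. Without differentiated array 3 the log2 difference was -0.33.

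Several exon probes had 1 array away from the other 5. For 11506+, undifferentiated array 3 stood at -1.35 and the other 5 arrays at 0.26 to 0.41. Its log2 difference was 0.54 (standard error 0.443; limma, adjusted p = 0.507) and -0.029 without that array. With the slide as a block, where the comparison rests on that array, limma called it at 1.68 (adjusted p = 0.00514). The same array was low for 10207- (-5.37 against -3.91 to -3.46), 11806+ (-0.97 against -0.11 to 0.17) and 11658- (-3.45 against -2.66 to -2.23), and high for 10495+ (-1.22 against -2.58 to -2.15). These 5 probes and 11274+ are the 6 called with the slide as a block. Undifferentiated array 2 was low for 10343+, at -2.32 against -0.84 to -0.032, and for 11712+, at -2.47 against -1.47 to -1.12. As each probe has a single spot per array, no repeat within the array bears on these readings.

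For the 12 exon numbers with both strands, the question is whether RNA was read on 1 strand or both, and whether the strands changed alike. A probe that was not kept does not show that RNA of its strand was absent, since signal depends on each probe's own binding. Both probes were kept for 3 numbers (10664, 11382 and 11711), the plus probe alone for 3 (10495, 11641 and 11712), the minus probe alone for 3 (10294, 11014 and 11569) and neither for 3 (11109, 11170 and 11661). Of the 317 such pairs among the mouselincRNA probes, both were kept for 60, the plus probe alone for 82, the minus probe alone for 80 and neither for 95.

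Among the numbers with the minus probe alone kept, 11569 held the called fall. Its minus probe was well above background on all 6 arrays, and its plus partner on 0 of 6, with levels from -5.90 to -4.44. The minus probe of 10294 stood at 0.86, 0.80 and 0.19 on the differentiated and 0.90, 0.75 and 0.75 on the undifferentiated arrays, and its plus partner at -6.04 to -4.78 with 0 of 6 spots well above background. The log2 difference of 10294- was -0.18 (standard error 0.199; limma, adjusted p = 0.628), with differentiated array 3 as the low one and overlapping groups. The minus probe of 11014 lay between -2.55 and -2.12 on all 6 arrays, with a log2 difference of -0.075 (standard error 0.150; limma, adjusted p = 0.802), and its plus partner was detected on 0 of 6.

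Among the numbers with the plus probe alone kept, 11641+ had the lowest adjusted p. Its level was -2.25, -2.60 and -2.31 on the differentiated and -2.01, -1.87 and -1.85 on the undifferentiated arrays. All differentiated arrays lay below all undifferentiated ones, and the log2 difference was -0.48 (95% interval -0.82 to -0.15, standard error 0.141; limma, adjusted p = 0.0705). With the test limited to probes well above background on all 6 arrays its adjusted p was 0.0495 in limma. With the normexp background the log2 difference shrank to -0.20 (limma, adjusted p = 0.294), and the adjusted p was between 0.0737 and 0.399 in the other alternatives. Its minus partner was detected on 0 of 6 arrays.

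The plus probe of 10495 stood at -2.58, -2.32 and -2.15 on the differentiated and -2.56, -2.40 and -1.22 on the undifferentiated arrays, a log2 difference of -0.29 (standard error 0.349; limma, adjusted p = 0.657). Its minus partner was well above background on 1 undifferentiated array and on 0 differentiated ones. The plus probe of 11712 had a log2 difference of 0.37 (standard error 0.351; limma, adjusted p = 0.569). Its minus partner 11712- was not well above background on any array, at -4.37, -4.28 and -4.14 on the differentiated and -4.82, -4.93 and -5.07 on the undifferentiated arrays. These groups do not overlap, and without a filter limma called the probe (adjusted p = 0.0446), but both groups were below the detection limit and no fold is given.

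In the 3 pairs with both probes kept, the plus minus minus log2 signal was taken on each array and compared between the groups. The probes' own binding remains in the value of each array and cancels only in the comparison of the groups. For 11711 the plus minus minus difference was 4.41, 3.62 and 3.45 on the differentiated and 3.27, 3.85 and 3.93 on the undifferentiated arrays, with overlapping groups. The plus probe itself was read at 1.61, 1.43 and 1.51 against 1.22, 1.39 and 1.57 and the minus probe at -2.80, -2.18 and -1.94 against -2.04, -2.46 and -2.35. The strand difference in change was 0.14 (95% interval -0.71 to 1.00; limma, adjusted p = 0.869). Its direction is not settled, since it was -0.15 without differentiated array 1, -0.065 without undifferentiated array 1, -0.0067 with the normexp background, -0.10 with the slide and -0.39 with the scan as a block.

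For 11382 the plus minus minus difference was -1.41, -0.98 and -1.27 on the differentiated and -0.79, -1.07 and -1.28 on the undifferentiated arrays, and the change was -0.17 (95% interval -0.84 to 0.49; limma, adjusted p = 0.851), which turned to 0.058 with the slide and 0.15 with the scan as a block. The plus probe was well above background on 3 of 6 arrays and the minus probe on all 6. For 10664, whose minus probe lay between -0.96 and 0.017, the difference was 7.90 and 7.18 on differentiated arrays 1 and 3 and 8.10, 8.11 and 7.62 on the undifferentiated arrays, with a change of -0.40 (95% interval -1.32 to 0.52; limma, adjusted p = 0.793). It was -0.76 without differentiated array 1 and -0.037 without differentiated array 3. With differentiated array 2 missing, each of these values rests on 1 differentiated array. The limma fit ran over all 63 same-number pairs of the array with both probes kept, of which it called 0 (0%), with 5 at an unadjusted p under 0.05, and 0 of the 3 exon pairs had an unadjusted p under 0.05. The groups did not overlap in 0 of the 3 exon pairs, against 9.52% of the 63. The exact permutation test cannot go below 0.1 with 3 against 3 arrays, so it could make no call (two-sided exact p of 0.3 for 10664, where 1 array is missing, 0.5 for 11382 and 0.8 for 11711). The intervals leave room for a strand difference in change as far from zero as -1.32 log2 units for 10664, 1.00 for 11711 and -0.84 for 11382.

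The 40 exon probes that were not kept were well above background on 2 arrays at most. The lowest signal among probes well above background was 15.9 to 21.4 intensity units per array. On differentiated array 3, 18 exon probes shared 1 value, -5.95, the floor written by the scanner software. Such values have no order, and no change is given for these probes.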

How the data were processed

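Arrays of 6 ATDC5 samples, grouped by their titles, were analysed. The deposited files hold spot intensity values from Agilent Feature Extraction 11.0.1.1, background-subtracted and detrended within each array, and 0 or 1 flags for detection and outliers, per the file headers; the version is also in the submitters' notes. The deposited value table of the authors holds log2 values, normalized by an unstated method, and was an alternative. Outlier spots were left out, spots of a probe were averaged as log2, and the 75th percentile of each array's non-control spots was subtracted. The 15 negative-control probes were left out. Probes well above background on at least 3 of 6 arrays were tested two-sided with limma 3.58.1 (R 4.3.3), with Benjamini-Hochberg adjustment over all 41838. The same was done on plus minus minus differences over 63 strand pairs. The scripts were tested on simulated data.

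Probes to be named were every called exon probe, up to 8 rises and 8 falls without overlap among those detected on all 6 arrays, the 6 brightest, those detected in 1 group alone, and pairs with a kept probe. The members, this rule and the alternatives (background, normalization, percentile, filter, replicate, slide and scan, variance trend, threshold, leaving out arrays) were chosen with earlier results of these data known. The labels name biotin and another array maker, whereas protocol and headers describe Agilent arrays with Cy3.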

Additional observations from a re-analysis of the deposited data

How the results depend on the processing

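The 3 called exon probes became 6 with the slide as a block (4 on the plus and 2 on the minus strand), and the single minus-strand call became 2 with the normexp background. It became 0 at a 2-fold threshold in limma (4 at an unadjusted p under 0.05). The counts were 2 to 4 under the other alternatives without a slide or scan term. They were 2 to 3 when 1 array was left out, where the minus strand had 0 to 1 calls (2 to 3 at an unadjusted p under 0.05) and the plus strand 2. The share of all tested probes that limma called also moved, from 13.3% in the main fit. It was 6.36% without a filter, 9.52% with a replicate block and 15.7% with the normexp background. Limited to probes well above background on all 6 arrays, it was 16.5%. Without 1 array it lay between 6.98% and 14.2%. Similar exon counts therefore stood beside different shares over the array. A like count can hold other probes: 11569- was not called without a filter, with a replicate block, or with a slide or scan term. Of the 3 called probes, only 11274+ was called with a slide or scan term, where undifferentiated array 3 alone is compared. The minus-strand probes called with the slide as a block, 10207- and 11658-, were higher after differentiation, whereas 11569- was lower. With the replicate number as a block limma called 3 exon probes, 10136+, 11274+ and 12036-. Deviations of same-numbered arrays correlated at 0.14, -0.087 and 0.034, so the numbers were not taken as pairs. The detection difference moved to -6.0 points on the plus and 3.03 points on the minus strand with the positive-and-significant flag, and lay between -5.33 and -2.33 and between -7.07 and -2.53 without 1 array. The strand pairs had 0 calls in limma under all alternatives (0 or 1 at an unadjusted p under 0.05). For all of these, the cause was not tested. Low signal limits 40 of the 83 probes.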

Other observations

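The numbering of the exon probes shows a regularity that was noticed after the data were seen. For 10 pairs of successive exon numbers both numbers are on the array. In 5 of these each number has a single probe, and in all 5 the lower number has a minus-strand and the higher a plus-strand probe (10105 and 10106, 11009 and 11010, 11060 and 11061, 11319 and 11320, 11939 and 11940). Both probes were kept in 3 of the 5. For 11939- and 11940+ the log2 differences between differentiated and undifferentiated cells were -0.24 and 0.0076, for 10105- and 10106+ 0.31 and 0.064, and for 11009- and 11010+ -1.03 and 0.16, none of which passed limma's test.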
